A study of Gallus gallus with 3 samples.

Results

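The transcripts described here are those of 7 transcription regulators that guide the B cell lineage from progenitor to antibody-secreting cell (IKZF1, TCF3, POU2AF1, BCL6, IRF8, IRF4 and XBP1), and of JCHAIN, the joining chain of polymeric antibodies. They were chosen by gene name, with earlier results of these data known. A probe was taken for a gene if the RefSeq accession printed on the array for it belongs to that chicken gene, which gave 1 probe for each of the 8 genes, out of 3827 genes that could be named in this way. The cells were DT40, an established chicken B cell line derived from a bursal lymphoma, and the sample descriptions name no transgene. One group of cells was left without peptide (0 µg/ml, called untreated here), another received the bursal-derived peptide BP5 at 0.02 µg/ml and another the bursal-derived peptide BSP-II at 2 µg/ml, all for 4 h in medium with fetal bovine and avian serum. RNA of each group was hybridised to 1 single-colour Agilent array (labelled replicate 1). The differences below therefore come without any replicate check or p-value, and precision is limited by the number of arrays.

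Ikaros (IKZF1) and the E protein E2A (TCF3) are needed for lymphoid progenitors to enter the B cell lineage. POU2AF1, also called OBF-1, is a B cell co-activator that binds DNA through octamer factors. BCL6 is the repressor that maintains germinal centre B cells, IRF8 acts in the same cells, and IRF4 at high dose turns B cells toward plasma cells. XBP1 then expands the endoplasmic reticulum for secretion, and the joining chain links IgM and IgA into polymers. These roles are known mainly from mouse and human B cells.

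The untreated array was brighter than the others. The 75th percentile of the processed signal over the 15319 probes detected on all 3 arrays was 2318 in untreated cells, 1487 with BP5 and 1391 with BSP-II. Levels are therefore given as log2 of the signal relative to that percentile on the same array, and a log2 ratio is a difference of such levels. The share of probes well above background (46.6%, 38.0% and 39.6%) and the median local background (43.5 in untreated cells and at most 54.5 with the peptides) also differed. Both peptide arrays were read in 1 scan and the untreated array in another, on the same slide, so a scan effect and a peptide effect cannot be told apart. Beside each log2 ratio, ± gives the spot error that the scanner software reports for both arrays, a median of 0.20. It leaves out the variation of cultures and labelling. For bright spots it was a nearly fixed share of the signal, 4156 on 41562 for XBP1 and 2242 on 22415 for IRF4 in untreated cells. For such genes, a ratio called within the scanner's error was one below a nearly constant width. The spot error also falls short of the disagreement between probes. In the 52 genes with 2 measured probes, their log2 ratios of BP5 to untreated differed by a median of 0.51 and had the same sign in 50% of genes.

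All 8 genes were well above background and unsaturated on all 3 arrays. For both peptides, 0 of the 8 genes passed a 2-fold difference from untreated cells in either direction. With BP5 the ratios ran from -0.29 for IKZF1 to 0.75 for IRF4, with a median of 0.24 against 0.04 over all 2578 genes measured on both arrays. With BSP-II they ran from -0.17 for IKZF1 to 0.96 for XBP1, with a median of 0.20 against 0.02 over 2615 genes. Among all genes measured with BP5, 3.76% passed 2-fold upward and 2.83% downward, and with BSP-II 2.83% did so upward and 2.03% downward. With the 75th percentile taken over all probes instead, the BP5 shares were 2.91% and 3.76%. At those shares a set of 8 genes with none past 2-fold is not set apart from the rest of the array. Both comparisons use the same untreated array.

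**Figure D1:**
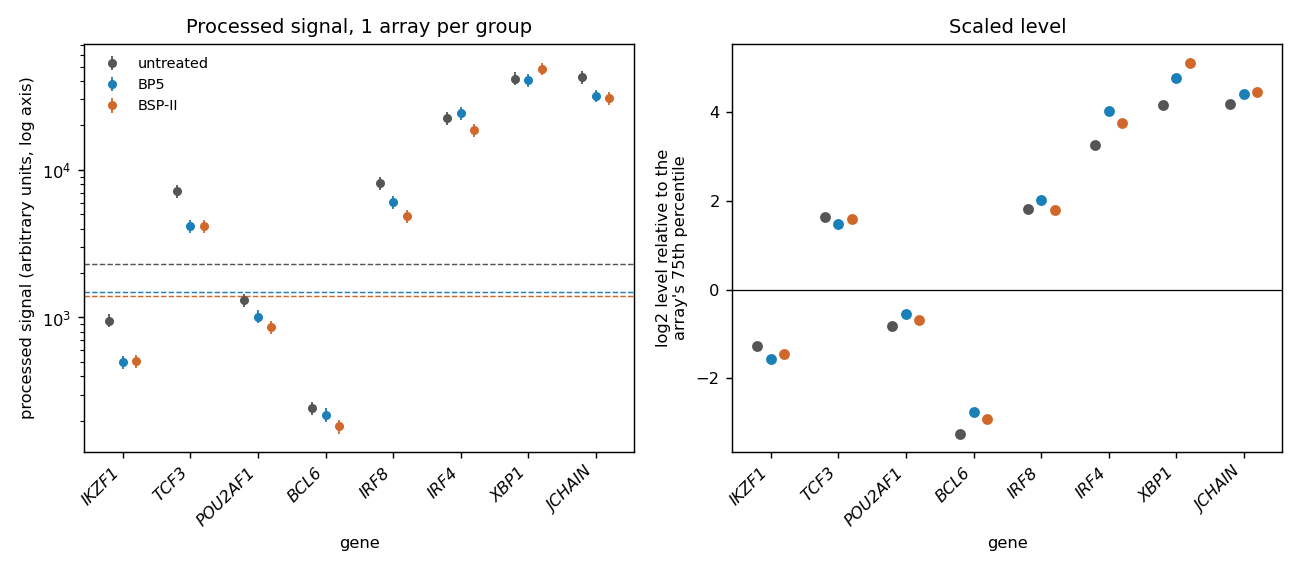
Left, processed signal of the 8 genes on the 3 arrays (log axis, arbitrary units, bars are the scanner's error of the spot); dashed lines mark the 75th percentile of each array. Right, the same values as log2 levels relative to that percentile; signals of different genes come from different probes and are not comparable with each other. XBP1 read 41562, 40708 and 48466 on the untreated, BP5 and BSP-II arrays, while the 75th percentile was 2318, 1487 and 1391.

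IKZF1 encodes Ikaros, a zinc finger factor that works with chromatin-remodelling complexes in lymphoid progenitors and B cells. Its probe read 953.8 in untreated cells, 499.96 with BP5 and 508.1 with BSP-II. On the scaled log2 axis these are levels of -1.28, -1.57 and -1.45, so the untreated array had the highest level and the peptide arrays lay close together. The log2 ratio to untreated was -0.29 ± 0.21 for BP5 and -0.17 ± 0.21 for BSP-II, the latter within the scanner's error. IKZF1 was the lowest of the 8 genes in both comparisons, yet 20.8% of all measured genes had a lower ratio with BP5 and 29.8% with BSP-II.

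TCF3 encodes the E proteins E12 and E47, which open the B cell programme and drive immunoglobulin gene transcription. Its signals were 7182 in untreated cells, 4145 with BP5 and 4171 with BSP-II. The scaled levels, 1.63, 1.48 and 1.58, were nearly level. Its ratios of -0.15 ± 0.20 and -0.05 ± 0.20 were within the scanner's error for both peptides, and their sign turned when the ratios of neighbouring spots were subtracted (0.05 and 0.19).

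POU2AF1, the octamer co-activator, is needed for germinal centres in mice. It read 1317 in untreated cells, 1014 with BP5 and 865.6 with BSP-II. Relative to the arrays these are levels of -0.82, -0.55 and -0.68, with the untreated array lowest. The ratio was 0.26 ± 0.20 for BP5 and 0.13 ± 0.20 for BSP-II. Of all measured genes, 69.2% had a lower ratio with BP5 and 60.8% with BSP-II, so the gene lay in the upper middle of the array.

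BCL6, the germinal centre repressor, had a dim spot, at 244.3 in untreated cells, 219.1 with BP5 and 183.1 with BSP-II. The raw spot medians were 312.0, 320.0 and 279.0 over local backgrounds of 37.0, 56.5 and 56.0. Its scaled levels were -3.25, -2.76 and -2.93, with both peptide arrays above the untreated one. The ratio was 0.48 ± 0.22 for BP5 and 0.32 ± 0.22 for BSP-II. These values depend on how the background is removed. Under a different background correction (normexp on the raw spot medians) the ratios were 0.07 and -0.05.

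IRF8, an interferon regulatory factor of myeloid and germinal centre B cells, read 8136 in untreated cells, 6030 with BP5 and 4846 with BSP-II. Scaled levels were 1.81, 2.02 and 1.80, so that the untreated and BSP-II arrays could hardly be separated and BP5 lay slightly above both. The ratio was 0.21 ± 0.20 for BP5 and -0.01 ± 0.20 for BSP-II.

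IRF4, of the same family as IRF8, had the largest ratio of the 8 genes with BP5. Its probe read 22415 in untreated cells, 24242 with BP5 and 18690 with BSP-II, and the BP5 array was thus the brightest even before scaling. The scaled levels were 3.27, 4.03 and 3.75. With BP5 the gene was 1.69-fold higher than in untreated cells (log2 ratio 0.75 ± 0.20), and 92.6% of all measured genes had a lower ratio. With BSP-II it was 1.39-fold higher (0.47 ± 0.20), with 85.6% of genes below it. Its ratios stand beside 0.21 and -0.01 for IRF8, a difference between genes that was not tested.

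XBP1, the transcription factor of the secretory programme and of the unfolded protein response, had the largest ratio with BSP-II. Its signals were 41562 in untreated cells, 40708 with BP5 and 48466 with BSP-II. Before scaling, the BP5 signal was thus 0.979 times the untreated one and the BSP-II signal 1.17 times, on arrays whose 75th percentiles were lower. The scaled levels were 4.16, 4.77 and 5.12, with untreated lowest and BSP-II highest. XBP1 was 1.94-fold higher with BSP-II than in untreated cells (0.96 ± 0.20), just short of 2-fold, and 96.7% of measured genes had a lower ratio. With BP5 it was 1.53-fold higher (0.61 ± 0.20), with 88.2% of genes below it. XBP1 messenger RNA is spliced in the cytoplasm to encode the active factor, and the files do not say whether the probe can tell the forms apart.

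JCHAIN marks cells that make polymeric antibody and is an established target gene of the plasma cell programme in mammals. It read 42411 in untreated cells, 31762 with BP5 and 30696 with BSP-II. The scaled levels were 4.19, 4.42 and 4.46, so the peptide arrays lay together slightly above the untreated one. Its ratio was 0.22 ± 0.20 for BP5 and 0.27 ± 0.20 for BSP-II, smaller than those of IRF4 and XBP1. All 3 signals stood far above the local background, which was 47.0, 63.0 and 61.0.

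**Figure D2:**
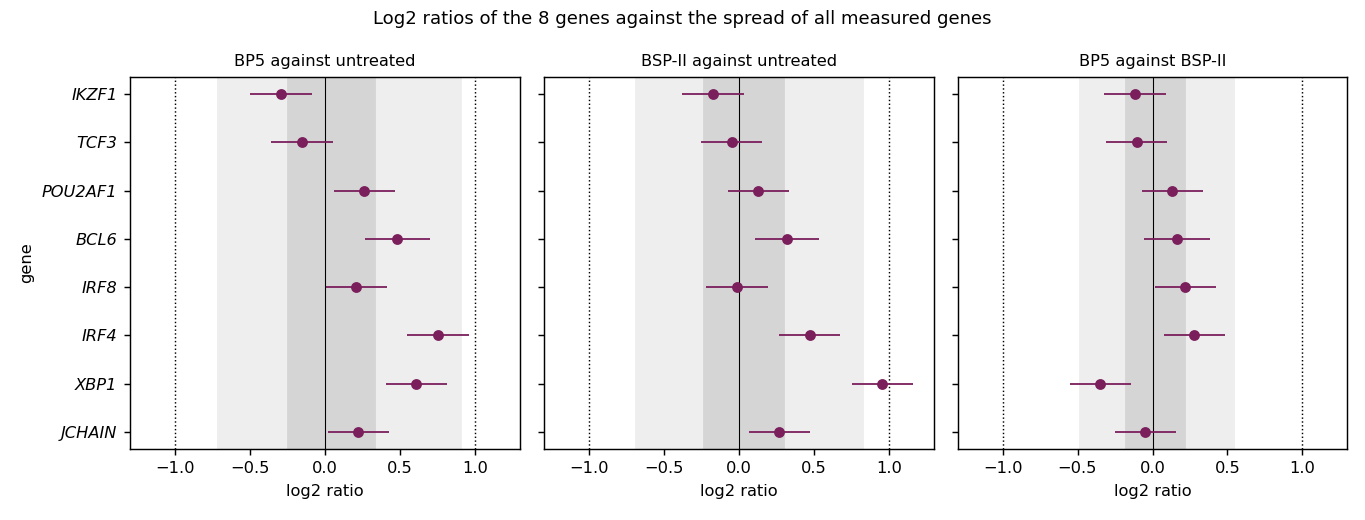
Log2 ratio of each of the 8 genes (points, with the scanner's error as bars) in the 3 comparisons; dark and light grey bands hold the central 50% and 90% of all measured genes, and dotted lines mark 2-fold. XBP1 with BSP-II is the only point outside the light band, and 0 points reach a dotted line.

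At a lower threshold of 1.5-fold, IRF4 and XBP1 were higher with BP5 and XBP1 alone with BSP-II, so 2 and 1 of the 8 genes. Of all measured genes, 12.6% passed that threshold upward with BP5 and 10.3% with BSP-II. None of the 8 passed it downward, against 6.83% and 6.54% of all genes.

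The peptide arrays, read in the same scan, were also set side by side. The doses differed, so peptide and dose cannot be told apart. Again 0 of the 8 genes were past 2-fold, against 0.311% of 2569 measured genes higher and 1.25% lower with BP5 than with BSP-II. None was past 1.5-fold either, against 3.97% higher and 3.5% lower. XBP1 had the lowest log2 ratio of BP5 to BSP-II (-0.35 ± 0.20, with 9.30% of genes lower still), and -0.05 in the authors' deposited table of normalized values. IRF4 had the highest (0.28 ± 0.20), followed by IRF8 (0.22 ± 0.20). The other 5 genes lay between -0.12 and 0.16, within the scanner's error of their spots.

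The ratios of neighbouring spots were set beside these values. IRF4 (row 83), JCHAIN (row 109), BCL6 (row 114) and XBP1 (row 169, column 6) lie among spots whose own ratios to untreated were above 0. The median ratio of the 33 to 50 measured probes within 5 rows and 5 columns was 0.29 for BP5 and 0.44 for BSP-II around IRF4, 0.33 and 0.44 around JCHAIN, 0.19 and 0.39 around BCL6, and 0.38 and 0.43 around XBP1. Around the other 4 genes it ran from -0.24 to 0.08. After the neighbours' median was subtracted, IRF4 kept a ratio of 0.47 for BP5 and 0.03 for BSP-II. XBP1 stood at 0.23 and 0.53, BCL6 at 0.30 and -0.06, and JCHAIN at -0.11 and -0.17. Of the 8 genes, XBP1 alone was then still more than 0.50 from untreated in either comparison, and that with BSP-II. The part of array position in these ratios was not tested.

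Genes of like signal strength were set beside the values in the same way. Among the 200 genes nearest to XBP1 in mean level the median ratio was 0.02 for BP5 and 0.17 for BSP-II, which leaves XBP1 at 0.59 and 0.78. For IRF4 these medians were -0.01 and 0.07, leaving 0.76 and 0.40. For JCHAIN they were 0.02 and 0.16, leaving 0.21 and 0.11. In the authors' deposited table XBP1 differed from untreated by 0.65 and 0.70, IRF4 by 0.78 and 0.35, and JCHAIN by 0.21 and 0.06.

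**Figure D3:**
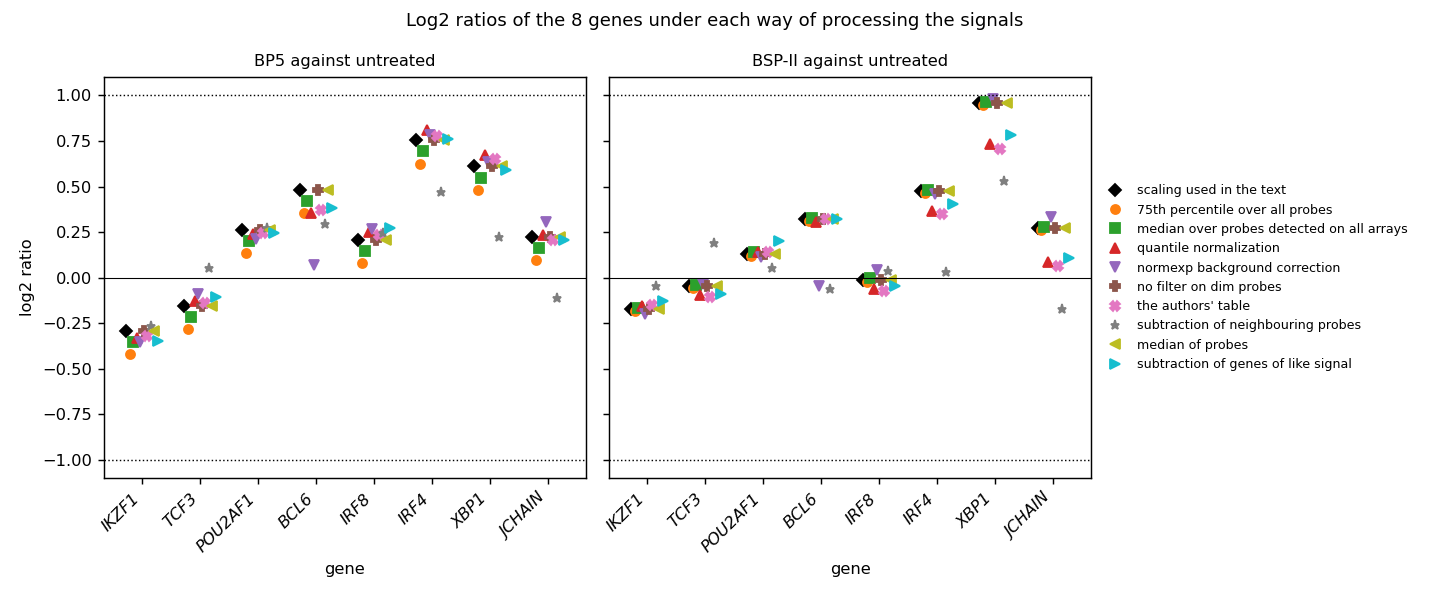
Log2 ratio to untreated of each of the 8 genes under the scaling used in the text (black diamonds) and 9 alternatives; dotted lines mark 2-fold. No value reaches 2-fold. For both peptides POU2AF1, IRF4 and XBP1 stay above 0 and IKZF1 stays below 0, and subtraction of neighbouring probes moves JCHAIN below 0 for both.

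The pattern of XBP1, the gene with the largest ratio to untreated, was shared by many others. Of 2560 genes measured on all 3 arrays, 217 had a pair of ratios within a distance of 0.50 log2 units of it. The nearest 3 were SF3A1 (0.60 for BP5 and 0.95 for BSP-II), KLHL18 (0.62 and 0.97) and SMYD5 (0.60 and 0.91). With 3 arrays, such likeness describes these values only.

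The other regulators of the B cell network gave a wider view. Of a list of 50, 26 were on the array under a matching accession, of which 18 could be measured for BP5 and 17 for BSP-II. As with the 8 genes, 0 passed 2-fold with either peptide, and the medians of 0.00 and 0.04 were close to those of all genes. Among the relatives and partners of the 8, picked for their family after the values were seen, the Ikaros relative IKZF2 had ratios of -0.26 for BP5 and -0.43 for BSP-II. POU2F1, an octamer factor that POU2AF1 binds, had 0.43 ± 0.34 and 0.31 ± 0.32 on dim spots (69.0, 59.8 and 51.4). After subtraction of genes of like signal it stood at -0.02 and 0.04. The E protein TCF12 had 0.37 and -0.15 as the mean of 2 probes. They read 0.09 and 0.65 for BP5, and -0.43 and 0.13, of opposite sign, for BSP-II. ID2, an inhibitor of E proteins, had 0.66 and 0.90, while its relative ID3 had -0.18 and 0.21. After the ratios of neighbouring spots were subtracted, ID2 stood at 0.18 and 0.34 and ID3 at -0.44 and -0.18.

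The list also held relatives of IRF4 and IRF8. IRF1, an interferon regulatory factor, had a ratio of -0.94 for BP5 and -0.30 for BSP-II, on spots of 159.5 in untreated cells, 53.4 with BP5 and 77.5 with BSP-II. The BP5 reading is near the 49.1 of the dimmest spot called well above background on that array. IRF1 passed 2-fold downward for BP5 with the 75th percentile taken over all probes. IRF2, named for its family after the values were seen, had ratios of -0.40 and -0.55. MYC, the oncogene activated in bursal lymphomas, had 0.69 and 0.89, MYB, a factor of progenitor cells, 0.73 and 0.16, and the repressor ZBTB7A 0.52 and 0.60. With the ratios of neighbouring spots subtracted, MYC stood at 0.92 and 1.08, MYB at 0.50 and 0.03, and ZBTB7A at 0.69 and 0.78.

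BCL6 and Ikaros act through co-repressors and the nucleosome-remodelling deacetylase NuRD. Of 36 such co-factors listed, 17 were on the array and 14 were measured with each peptide, with medians of 0.25 and 0.14. One of the 14 (7.14%) passed 2-fold, with BP5 only, against 3.76% of all genes higher with BP5. This was GATAD2A, a NuRD subunit, at 1.20 for BP5 and 0.97 for BSP-II. It rests on dim spots of 53.7, 79.3 and 63.3, near the lowest signals called well above background (30.2, 49.1 and 36.7). For BP5 it stood at 0.85 after subtraction of the neighbouring spots and at 0.75 after subtraction of genes of like signal. Another NuRD subunit, MBD3, had 0.86 and 0.52, also on dim spots (62.1, 72.3 and 53.4). After subtraction of genes of like signal MBD3 stood at 0.41 and 0.23. The remodeller ATPase SMARCA4 had 0.79 and 0.59, and TBL1XR1 of the NCOR complex had -0.45 and -0.56. MTA1, also of NuRD, had 0.68 and -0.28, and of this list it differed most between the BP5 and BSP-II arrays (0.96). HDAC4 had -0.10 and -0.43.

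XBP1 is known to activate genes of folding, translocation and transport in the endoplasmic reticulum. Of 63 listed targets and secretory pathway genes, 26 were on the array and 24 were measured. Their median ratio was 0.02 for BP5 and -0.05 for BSP-II, against 0.61 and 0.96 for XBP1 itself, and 0 of the 24 were past 2-fold. Of the 24, 11 lay above the median of all genes with BP5 and 10 with BSP-II. DNAJB11, an endoplasmic reticulum co-chaperone, had 0.89 and 0.71 on dim spots (116, 137 and 114). The coat protein SEC23B had 0.79 and 0.72. SEL1L, of the degradation machinery, had 0.66 and -0.01, the translocation factor SEC62 0.59 and 0.19, and the chaperone HSPA5 0.30 and -0.16. Other genes of the list, picked after the values were seen, were lower with both peptides. Among them were HSP90B1 (-0.50 and -0.51), PDIA4 (-0.37 and -0.58) and EDEM1 (-0.43 and -0.38). With the ratios of neighbouring spots subtracted, HSP90B1 stood at -0.24 and -0.35, PDIA4 at -0.14 and -0.32, and EDEM1 at -0.13 and -0.16. Genes higher with both peptides, picked in the same way, included PDIA3 (0.27 and 0.60), SSR1 (0.60 and 0.27) and SSR2 (0.30 and 0.57). After the same subtraction PDIA3 stood at 0.21 and 0.63, SSR1 at 0.59 and 0.28, and SSR2 at -0.06 and 0.30. KDELR2, a retrieval receptor, had means of -1.02 and -1.20 that no single probe showed. Its 2 probes read 0.20 and -2.24 for BP5 and 0.03 and -2.42 for BSP-II, so it was not counted. The receptor that carries J chain-containing antibody across epithelia, PIGR, was not well above background on any of the 3 arrays.

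**Figure D4:**
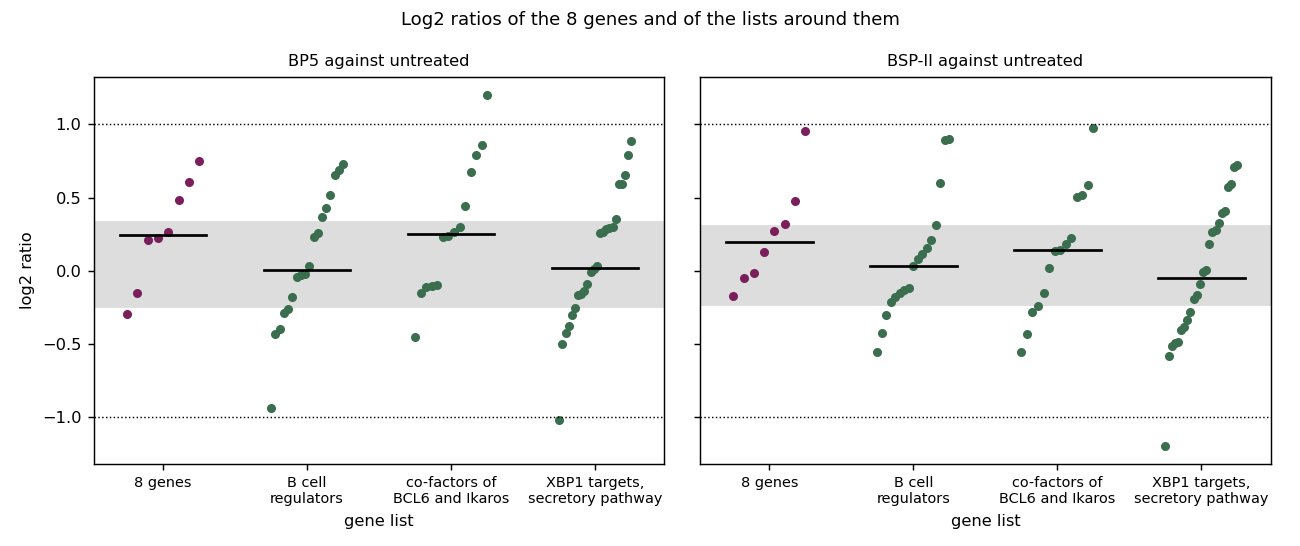
Log2 ratio to untreated of the 8 genes (purple) and of 3 lists around them (green), each point a gene, sorted within a list, with the list median as a bar; the grey band holds the central 50% of all measured genes and dotted lines mark 2-fold. The list medians lie inside the band, and the points below the lower dotted line are KDELR2, whose probes disagree.

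Markers of several cell types were also read. Of 10 B cell markers on the array, 6 were detected in untreated cells and 4 on each peptide array. Detected in untreated cells only were LYN (31.7) and PIK3AP1 (30.4), just over the lowest signal called well above background there, 30.2. That lowest signal was 49.1 with BP5 and 36.7 with BSP-II, so the readings do not show a loss of either transcript. PAX5, EBF1, CD79B and CD40 were not well above background on any of the 3 arrays. BTK, SYK, CD74 and LY86 were, on all 3. Markers kept for being detected cannot check the B cell label, nor can the 8 genes themselves, so it rests on the sample descriptions. Each of the undetected 4 has 1 probe here, whose performance is not known, so the readings do not show that the cells lack these transcripts. LY86 passed 2-fold (1.19 for BP5 and 1.09 for BSP-II), 1 of 4 measured markers, beside 3.76% and 2.83% of all genes higher. BTK had 0.83 and 0.53 on dim spots (81.4, 93.1 and 70.3), SYK 0.42 and -0.29, and CD74 0.03 and 0.59. After subtraction of genes of like signal BTK stood at 0.46 and 0.30. The signals of the 4 B cell markers detected on all 3 arrays were summed, in multiples of the array's 75th percentile. The sum was 0.727 in untreated cells, 0.951 with BP5 and 1.02 with BSP-II. CD74 was its brightest probe on each array, followed by SYK in untreated cells and with BP5, and by LY86 with BSP-II. Of 8 T cell markers 2 were detected (CD3D and CD247; summed 1.71, 1.55 and 1.91), while CD3E, CD4, CD5 and CD8A were not. Of 8 macrophage and granulocyte markers, 4 were detected (CEBPB, CTSK, CYBB and LYZ; summed 0.407, 0.334 and 0.436). Of 4 erythroid and thrombocyte markers, TUBB1 was detected on all arrays (1.09, 0.596 and 0.690) and TAL1 in untreated cells. The TAL1 reading there, 31.2, was likewise just over the lowest called well above background. No measured marker of these other lineages passed 2-fold. Their part in the ratios of the 8 genes was not tested, and a change in the share of cells cannot be told apart from a change of RNA per cell in such bulk samples.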

How the data were processed

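RNA of DT40 cells was measured on 1-colour Agilent arrays, 1 each for untreated cells, BP5 and BSP-II. Per the file headers, the deposited spot intensity was made with Agilent Feature Extraction 10.5.1.1, named also in the submitters' processing notes, on a grid of the galGal3 assembly. It is background-subtracted and detrended, with dim spots at a floor, and is not normalized between arrays. Flags of 0 or 1 for well above background, saturation and outliers come from the same deposited files. The authors also deposited log2 values of 20085 probes, whose columns share a maximum of 17.7 and track log2 of the intensity; no source used here names their normalization. How the several cell populations of the design text relate to the arrays is not stated either.

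Of 43451 spots, 1417 control spots and 153 probes with an outlier flag were left out. Of 4967 probes with a RefSeq accession, 3955 were named through the GRCg7b gene table, used for names only. A gene's ratio averages its probes that were unsaturated and well above background on both arrays, and it counts as past 2-fold only if its probes share a sign. Because fewer than 50% of probes were detected, the 75th percentile was taken over probes detected on all arrays, with all probes as an alternative. Genes named besides the 8 were those past 2-fold and the 3 largest ratios per list and comparison, except where stated. Members and lists were chosen with earlier results of these data known. The steps were tested on simulated data. Python 3.11.15, R 4.3.3 and limma 3.58.1 were used.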

Additional observations from a re-analysis of the deposited data

How the results depend on the processing

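No paired analysis was possible because each group has 1 array, so there was no replicate to block on or to leave out. The count of the 8 genes past 2-fold was 0 in each comparison under all 9 alternatives that kept this threshold, and at 1.5-fold it was 2 (BP5), 1 (BSP-II) and 0 (between the peptides). Of their 24 log2 ratios over 3 comparisons, 17 kept their sign under 9 alternatives and 7 did not. Of these alternatives 2 (no filter on dim probes and the median of probes) leave the 8 genes as they are by construction, since each has 1 detected probe, so 7 could have moved a ratio or the count. For B cell regulators the BP5 count of 0 became 1 with the percentile over all probes, quantile normalization, the authors' table or subtraction of genes of like signal (IRF1 each time), 4 at 1.5-fold and 4 without the filter on dim probes. The BSP-II count of 0 became 1 in the authors' table (LEF1), 1 after subtraction of neighbouring probes (MYC), 3 at 1.5-fold and 3 without the filter. The count between the peptides became 1 at 1.5-fold and 1 without the filter. The cause was not tested. The floor signal itself was 6.06 in untreated cells, 9.85 with BP5 and 7.36 with BSP-II. Without the filter, probes at the floor therefore come out higher with the peptides through both the floor and the scaling.

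Over all genes, 97 were higher and 73 lower with BP5 (57.1% of those past 2-fold higher), and 75 and 97 (43.6%) with the percentile over all probes, which lowers every BP5 ratio by 0.13. The split was 58 and 88 under quantile normalization, 23 and 54 under normexp, 88 and 169 in the authors' table, 59 and 83 after subtraction of genes of like signal and 824 and 135 without the filter. With BSP-II it was 74 and 53, against 45 and 58 under quantile normalization, 26 and 33 under normexp, 73 and 127 in the authors' table and 742 and 123 without the filter. Between the peptides it was 8 and 32, against 3 and 38 with the percentile over all probes, 2 and 27 under normexp, 19 and 62 in the authors' table, 5 and 16 after subtraction of neighbouring probes and 65 and 76 without the filter. Normexp was run on spot medians, as the spot means it was planned for are not among the columns used here. Naming probes by a gene name column was not run for the same reason. Subtraction of genes of like signal was chosen after seeing the data. Signal over background was low for IRF1 and GATAD2A, whose BP5 or untreated readings lay near the lowest called well above background. The spots of MBD3, POU2F1 and BTK were dim as well.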
